A study of Drosophila melanogaster with 3 samples.

Results

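The 3236 regions described here are the peaks of chromatin precipitated with the tagged transcription factor foxo that lie inside introns and away from every annotated gene start in Drosophila melanogaster larvae. They were chosen by position alone from the 9766 reproducible (optimal) peaks in the dm6 genome, all of which lie on the main chromosome arms. The summit of each had no annotated transcription start site (TSS) within 1000 bp, lay inside a gene, and touched no annotated exon. For comparison, 4971 optimal peaks had a TSS within 1000 bp, 1407 were intergenic and away from TSSs, and 152 lay in exons away from TSSs. The chromatin came from whole larvae of the third instar, at the wandering stage, of the strain foxo-MiMIC-GFP, with males and females pooled, in 3 biological replicates that form 1 group. In this strain an eGFP exon inside an intron makes the foxo gene encode a tagged fusion protein, which an antibody against GFP precipitated from sonicated chromatin with a size range of 200 to 800 bp. Libraries of untagged larvae or of input chromatin were not analysed here, so peaks that depend on foxo and signal that does not cannot be told apart, and the word peak is used for both. Whole larvae mix all tissues, so binding in 1 tissue and weak binding in many cannot be told apart.

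foxo is a forkhead-family activator and repressor that insulin signalling keeps out of the nucleus through phosphorylation by Akt. When insulin signalling is low it enters the nucleus and binds DNA at sequences related to RTAAAYA (R is A or G, Y is C or T). Introns of flies, the long introns near the start of a gene above all, often hold enhancers, stretches of DNA where transcription factors act on a promoter from a distance.

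The member with the highest signal lay in an intron of ush, the gene of a zinc finger partner of GATA factors, and of the 4 highest members shown here only the last had a forkhead core near its summit. The sequences shown come from 2L, 3L and X. Windows of 151 bp centred on the summit are shown on the plus strand of dm6, with any match to the core RTAAAYA on either strand in capitals. They cover chr2L:480981-481131 (ush), chr2L:6612631-6612781 (CG11050), chrX:4910286-4910436 (CG32772) and chr3L:3060711-3060861 (CG32486).
ush: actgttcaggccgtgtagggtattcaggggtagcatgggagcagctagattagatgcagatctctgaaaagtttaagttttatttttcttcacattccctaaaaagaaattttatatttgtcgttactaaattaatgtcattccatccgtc
CG11050: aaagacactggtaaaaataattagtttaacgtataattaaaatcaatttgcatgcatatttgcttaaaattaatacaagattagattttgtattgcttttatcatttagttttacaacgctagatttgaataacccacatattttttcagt
CG32772: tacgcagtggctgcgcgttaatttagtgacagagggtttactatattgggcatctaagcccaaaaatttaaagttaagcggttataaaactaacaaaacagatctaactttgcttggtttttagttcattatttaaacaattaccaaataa
CG32486: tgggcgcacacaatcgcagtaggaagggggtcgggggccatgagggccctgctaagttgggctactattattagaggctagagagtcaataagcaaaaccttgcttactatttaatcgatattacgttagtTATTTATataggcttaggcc

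Of 1740 members found in all 3 replicates, with 1 arm not searched, 44 had the preferred forkhead site GTAAACA within 50 bp of the summit. The 3 of these with the highest signal are shown in the same way, since they are the strong members that do carry the expected letters. They lay in introns of Trl, the gene of GAGA factor (chr3L:14759421-14759571), of Raf, a kinase of the Ras pathway (chrX:2300617-2300767), and of CG13917 (chr3L:1591797-1591947).
Trl: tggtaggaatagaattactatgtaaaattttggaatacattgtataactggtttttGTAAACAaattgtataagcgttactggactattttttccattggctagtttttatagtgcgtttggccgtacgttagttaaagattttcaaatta
Raf: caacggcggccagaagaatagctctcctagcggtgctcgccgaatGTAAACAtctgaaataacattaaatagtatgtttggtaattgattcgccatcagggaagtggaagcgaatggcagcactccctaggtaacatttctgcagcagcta
CG13917: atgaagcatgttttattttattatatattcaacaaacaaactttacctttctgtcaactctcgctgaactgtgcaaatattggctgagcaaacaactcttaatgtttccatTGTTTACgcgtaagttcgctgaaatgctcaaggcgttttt

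A 12-letter sequence, made of CACTG, any 1 base, and GAGAAA, was found in far more member windows than in other intronic sequence, and the 5 highest of 33 members with it within 50 bp of the summit, found in all 3 replicates and with the same arm not searched, are shown with those letters in capitals on whichever strand they fell. They lay in introns of aop, the gene of an ETS-family repressor (chr2L:2164894-2165044), of lncRNA:CR46006 (chr3L:10328807-10328957), of kirre, the gene of an adhesion protein of myoblast fusion (chrX:3097164-3097314), of bbg, the gene of a PDZ-domain protein (chr3L:14487046-14487196), and of l(1)G0289 (chrX:10362927-10363077). The sequence was picked after its frequency in these windows was seen, so all values given for it are descriptions.
aop: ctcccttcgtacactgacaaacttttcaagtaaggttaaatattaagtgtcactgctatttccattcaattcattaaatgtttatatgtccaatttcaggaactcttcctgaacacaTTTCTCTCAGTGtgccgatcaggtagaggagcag
lncRNA:CR46006: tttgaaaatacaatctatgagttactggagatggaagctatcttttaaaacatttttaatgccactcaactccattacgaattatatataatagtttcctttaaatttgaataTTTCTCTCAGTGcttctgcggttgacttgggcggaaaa
kirre: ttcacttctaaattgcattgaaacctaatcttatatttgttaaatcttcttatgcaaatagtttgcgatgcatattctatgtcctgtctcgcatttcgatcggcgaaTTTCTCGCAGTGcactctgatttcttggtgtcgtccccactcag
bbg: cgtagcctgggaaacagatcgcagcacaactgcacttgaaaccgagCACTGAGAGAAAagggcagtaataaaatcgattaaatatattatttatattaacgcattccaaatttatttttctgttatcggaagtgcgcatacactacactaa
l(1)G0289: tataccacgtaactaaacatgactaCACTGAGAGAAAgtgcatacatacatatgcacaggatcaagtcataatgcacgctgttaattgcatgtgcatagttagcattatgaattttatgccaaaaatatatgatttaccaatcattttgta

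Letters around CAGTG marked the intronic peaks more strongly than the forkhead core did. Among 1820 sequences of 6 letters, each read on both strands and present in at least 3% of windows on average, the most frequent in members relative to GC-matched intronic tiles was ACAGTG, in 19.9% of the windows that reach 100 bp to each side of a member's summit and 6.35% of the matched tiles. Its ratio was 3.19, 3.26 and 2.88 in the top 9766 regions of replicates 1, 2 and 3. CAGTGC followed with 18.8% against 6.34%. GTGCAC, which does not contain CAGTG on either strand, was next with 9.46% against 3.30%. ACACTG and CACTGA came after it at 17.2% and 18.1%, against 6.23% and 6.84%. The median ratio over the 1820 sequences was 0.980, and none of the 6 that make up the forkhead core had a ratio above 1.08.

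The 5 letters CAGTG, on either strand, stood in 51.0% of member windows (Wilson 95% interval 49.3 to 52.7), against 29.3% of the windows 500 bp to either side and 26.8% of the 208312 tiles. In the replicates the share was 51.0%, 52.2% and 47.5%. The sequence was about as frequent at intergenic peaks (50.8%, 48.2 to 53.4) and less so at peaks near a TSS (46.4%, 45.0 to 47.8). Intronic regions of the pooled list that did not reach the optimal list held it in 37.3% of cases (36.3 to 38.3, 8581 regions). CAGTG was not centred on the summit: it occurred 4.05 times per kb at 100 bp to the left and 4.07 times at 100 bp to the right, but 1.96 times per kb at the summit itself and 1.79 and 1.73 at 500 bp to the left and right.

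The 12-letter sequence, which contains CAGTG on its other strand, stood in 164 member windows, or 5.07% (4.36 to 5.88). It was present in 11 of 6472 flank windows (0.170%) and in 277 of the tiles (0.133%). In the replicates the share was 5.13%, 5.05% and 4.29% (mean 4.82% ± 0.462, SD, n = 3), and every replicate was far above its own GC-matched tiles, with ratios of 37.7, 37.2 and 31.7. The tiles were chosen to hold no pooled region, so part of that distance follows from their choice, but the flank windows were not. Intergenic peaks held it in 6.18% of cases (5.04 to 7.57), peaks near a TSS in 1.31% (1.03 to 1.66), and intronic regions that missed the optimal list in 1.41% (1.18 to 1.68). The difference between members and TSS-proximal peaks lay outside the counting error of both shares, and that between members and intergenic peaks did not.

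Like CAGTG, the 12 letters sat beside the summit: their density was 0.341 and 0.334 per kb at 50 bp to the left and right, 0.101 at the summit, and 0 in the bins 200 bp to the right and 450 bp to the left. Over the 175 matches the base just before the match was G in 59.4% and the base before that T in 65.1%, and the base at the free position was A in 52%. More than 10 bases outside the match no base reached above 42.3% at any of the positions examined up to 40 bases on each side, so most matches did not continue into a common longer sequence. They fell in 137 host genes and on all arms except 4, from 3.67% of members on 2L to 6.12% on the X. kirre had 5 members with the sequence, 23 genes had 2 and 113 had 1. kirre is named here after its value was seen. The share with the 12 letters was 6.03% and 6.80% in the highest and the next highest 20% of members by signal and 3.40% in the lowest 20% (2.25 to 5.09). Of the members that held it, 75% were found in all 3 replicates (67.9 to 81.0), against 63.9% of all members and 65.2% of all optimal peaks. Their median signal was also higher, 349 against 281 for the other members, and the part of signal in this recovery was not tested.

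**Figure D1:**
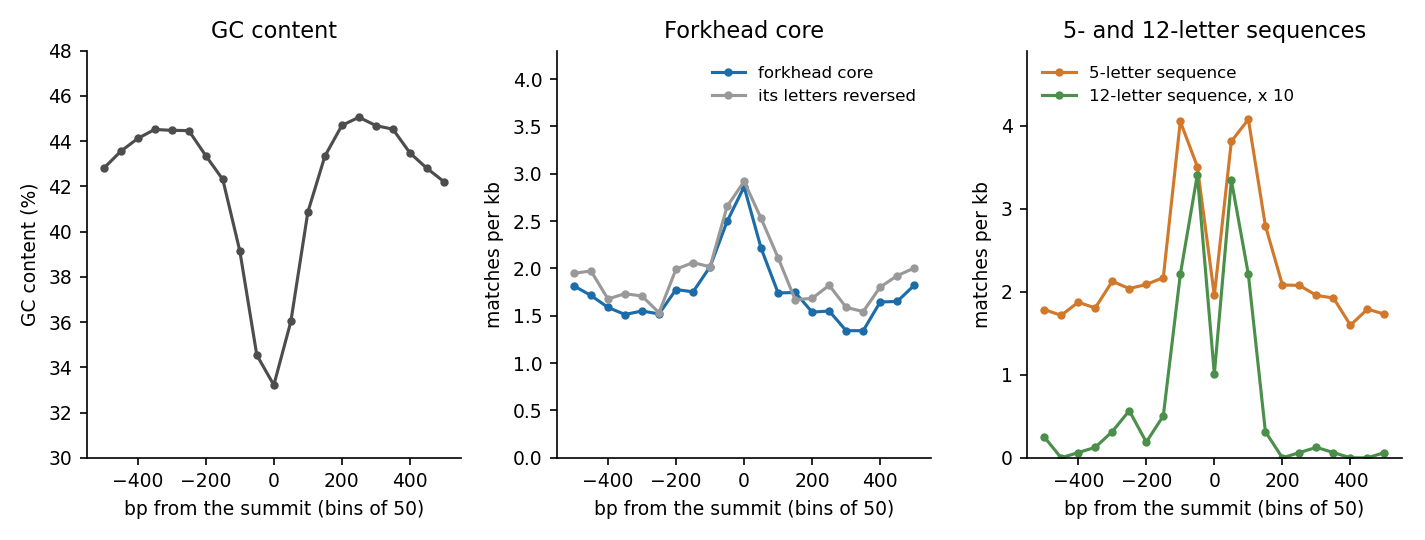
GC content (%), matches per kb of the forkhead core and of its letters in reverse order, and matches per kb of CAGTG and of the 12-letter sequence (the last multiplied by 10), in bins of 50 bp from the summit over the intronic peaks. GC content and both core curves have their extreme at the summit, whereas the 5-letter and 12-letter sequences peak between 50 and 100 bp on either side.

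The forkhead core was more frequent at the summits than beside them, and its excess over intronic sequence of the same GC content was within the counting error. It stood in 36.1% of member windows (34.5 to 37.8), in 26.9% of the flank windows and in 27.8% of all tiles. Member windows had a mean GC content of 35.7%, against 42.6% in their flanks and 40.1% in the tiles. Against GC-matched tiles the ratio was 1.04 (95% interval 0.994 to 1.09), and it was 1.09, 1.01 and 1.06 in replicates 1, 2 and 3 (exact permutation test, two-sided, p = 0.25, the smallest that 3 replicates can give). The direction turned with GC-matched flank windows (0.945) and in the 4883 highest optimal peaks (0.989). The same letters in reverse order, AYAAATR, were in 38.4% of member windows and 38.7% of matched tiles, with a density of 2.92 per kb at the summit and 2.07 in all tiles. The core had 2.86 per kb at the summit and 1.81 in all tiles. The preferred site GTAAACA was in 5.62% of member windows (4.88 to 6.47), with 4.18% of all tiles and 4.69% of matched tiles holding it. Its ratio was 1.20 (1.04 to 1.38), and 1.37, 1.14 and 1.27 in the replicates. In the 20% of members with the highest signal the ratio was 0.963 (0.678 to 1.37), and in the lowest 20% it was 1.48 (1.11 to 1.97), intervals that overlap.

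Of the 20 motifs in the panel, each searched on both strands, 60.0% had a ratio to GC-matched tiles whose interval excluded 1, of which 9 lay above 1 and 3 below it. The site of GAGA factor (GAGAGAG) was in 3.52% of member windows and 1.93% of matched tiles (2.54% of all tiles), a ratio of 1.82 (1.52 to 2.19) with 1.88, 1.53 and 1.89 in the replicates. It was more frequent still in the flanks, at 5.22%. From the highest to the lowest 20% of members by signal the ratio was 1.41, 1.18, 1.47, 2.51 and 2.37, and in the 3 groups of higher signal the interval included 1. The GATA site (WGATAAG, W is A or T) stood in 7.82% of member windows, with 5.11% of all tiles and a ratio of 1.35 (1.20 to 1.52). AP-1 (TGANTCA), the site of Jun and Fos, was in 6.49%, with 4.31% of all tiles and a ratio of 1.39 (1.22 to 1.59). Peaks near a TSS held AP-1 in 4.43% of windows and intergenic ones in 4.48%. The site of the embryonic activator Zelda (CAGGTAG) was in 1.36%, with 0.949% of all tiles and a ratio of 1.70 (1.26 to 2.29). In all of these the replicates lay above 1 in 3 of 3.

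The promoter motifs that mark peaks at gene starts were rare in the introns. The DRE (TATCGATA), an element of constitutive promoters, was in 15 of 3236 windows (0.464%, 0.281 to 0.763) against 5.59% of TSS-proximal peaks, and 0.481% of all tiles held it. Ohler 1 (GGTCACAC), the site of M1BP, was in 22 windows (0.680%) against 4.04% of TSS-proximal peaks, and although rare it exceeded its matched tiles (ratio 2.48, 1.62 to 3.81; 0.311% of all tiles). Below their matched tiles stood STAT (TTCNNNGAA, 5.87% of windows and 6.72% of all tiles, ratio 0.754, 0.656 to 0.867), TEAD (GGAATG, 7.51% and 9.81%, ratio 0.867, 0.767 to 0.979) and the homeodomain core (TAATTA, 16.5% and 15%, ratio 0.889, 0.822 to 0.961). The E-box CAGCTG, the CA repeat CACACACA and runs of 8 A completed the motifs above 1, with ratios of 1.21, 1.23 and 1.16. They stood in 7.25%, 4.82% and 13.1% of all tiles. Without GC matching the direction turned for the E-box, at 6.43% of member windows and 9.33% of flanks. The CA repeat turned too, at 4.23% and 7.56%, and both were also below their shares of all tiles. The homeodomain core turned the other way, at 16.5% of member windows against 15% of all tiles and 12.55% of flanks. GAGA turned against the flanks only, at 3.52% and 5.22%.

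**Figure D2:**
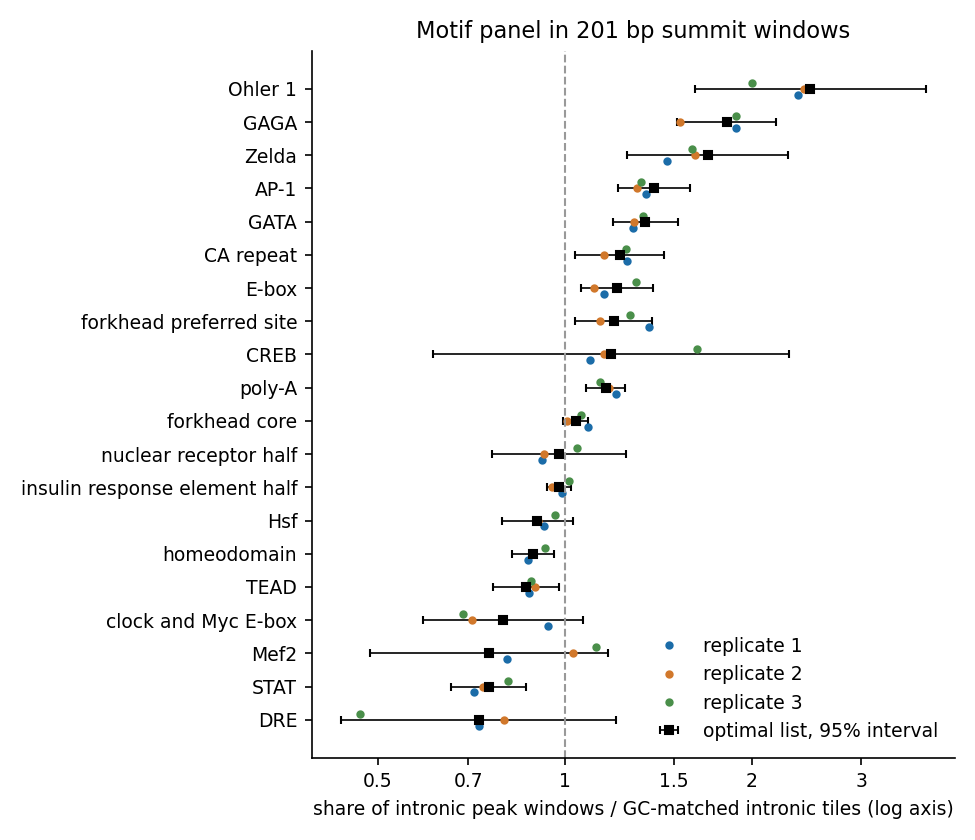
Ratio of the share of intronic peak windows with a motif to the share of GC-matched intronic tiles, on a log axis, for the 20 motifs of the panel (squares with 95% intervals of counting error; dots for replicates 1 to 3). Ohler 1 and GAGA lie furthest above 1, the forkhead core lies at 1.04, and STAT, TEAD and the homeodomain core lie below 1 in all replicates.

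Introns away from start sites held fewer foxo peaks than their length would give, yet more than intergenic sequence. They make up 36.2% of the arms (48.4 Mb) and held 33.1% of the optimal peaks (32.2 to 34.1), or 66.8 per Mb (exact Poisson 95% interval 64.6 to 69.2). Sequence within 1000 bp of a TSS held 157 per Mb (153 to 162) and intergenic sequence away from TSSs 41.8 per Mb (39.7 to 44.1). In the top regions of replicates 1, 2 and 3 the intronic density was 62.9, 68.3 and 63.5 per Mb, and the intergenic density 37.8, 44.2 and 39.7, so that intronic exceeded intergenic density in every replicate, 1.60-fold ± 0.0584 (SD, n = 3).

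Intronic peaks thinned out steadily with distance from a start site. From 1000 to 1500 bp away their density was 125 per Mb (114 to 137), from 3000 to 5000 bp it was 76.5 (70.5 to 82.9), and beyond 20000 bp it was 17.8 (15.1 to 20.9). The replicates gave 119 ± 3.53, 76.0 ± 2.93 and 17.3 ± 2.69 per Mb in these ranges (SD, n = 3), spreads far smaller than the fall. Intergenic density was lower than intronic in each of the 7 ranges, 75.7 per Mb in the nearest and 6.05 in the farthest. The median member lay 4016 bp from the nearest TSS, against 6439 bp for all sequence meeting the rule.

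**Figure D3:**
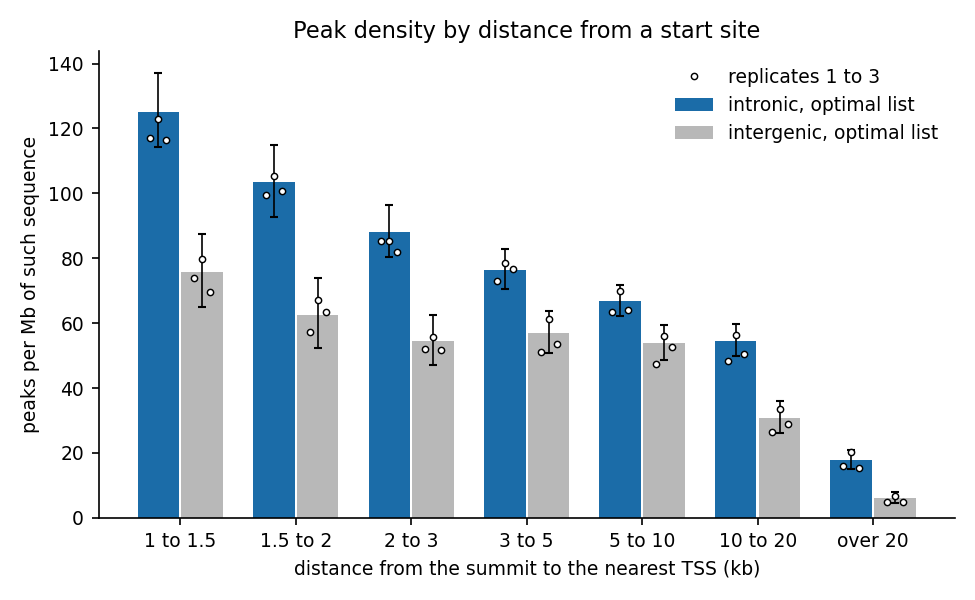
Peaks per Mb of sequence at each distance from the nearest TSS, in introns (blue) and in intergenic sequence (grey), with exact Poisson 95% intervals and the 3 replicates as open points. Intronic density falls from 125 to 17.8 per Mb and stays above the intergenic density in every range.

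The peaks favoured the intron nearest the gene's start. In the longest transcript of the host (the shortest protein-coding gene around the summit), 1458 members (45.1%, 43.4 to 46.8) lay in intron 1, which makes up 28.5% of the sequence meeting the rule. The ratio was 1.58, and 1.61, 1.55 and 1.62 in the replicates. Intron 2 held 30.6% of members and 27.1% of the sequence, and later introns 24.4% of members and 44.3% of the sequence (ratio 0.549). These ratios were not matched for distance from a TSS, along which density also fell. The part of that distance in them was not tested. Introns of 3000 to 10000 bp held 26.5% of members on 20.6% of the sequence, shorter ones 8.59% on 14.2%, and longer ones 64.9% on 65.2%. Within an intron, the 500 bp next to either end held 8.99% of members and 16.3% of the sequence (ratio 0.553; 0.558, 0.552 and 0.532 in the replicates).

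Members tended to be weaker peaks. They made up 24.1% ± 1.04 of the 1000 highest regions of a replicate and 33.1% ± 1.58 of the rest of its top 9766 (SD, n = 3). The difference was -9.20, -10.3 and -7.46 percentage points in replicates 1, 2 and 3 (exact permutation test, two-sided, p = 0.25, the smallest possible). Their share went on rising below the threshold, to 43.8% ± 1.57 in the last 1000 of 30000 regions. The signal of members, the authors' value with no unit named, ran from 150.7 to 10606 with a median of 283, against a median of 363 for peaks near a TSS and 287 for intergenic ones. On a percentile scale of rank within a replicate (100 is the highest), the median member stood at 43.6, 44.3 and 46.6 and the median TSS-proximal peak at 55.3, 57.2 and 53.1. The members stood lower in 3 of 3 replicates, by 10.4 ± 3.38 points (p = 0.25, exact permutation test). Against intergenic peaks the difference was -0.850, 0.491 and -1.40 points, with no common direction.

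**Figure D4:**
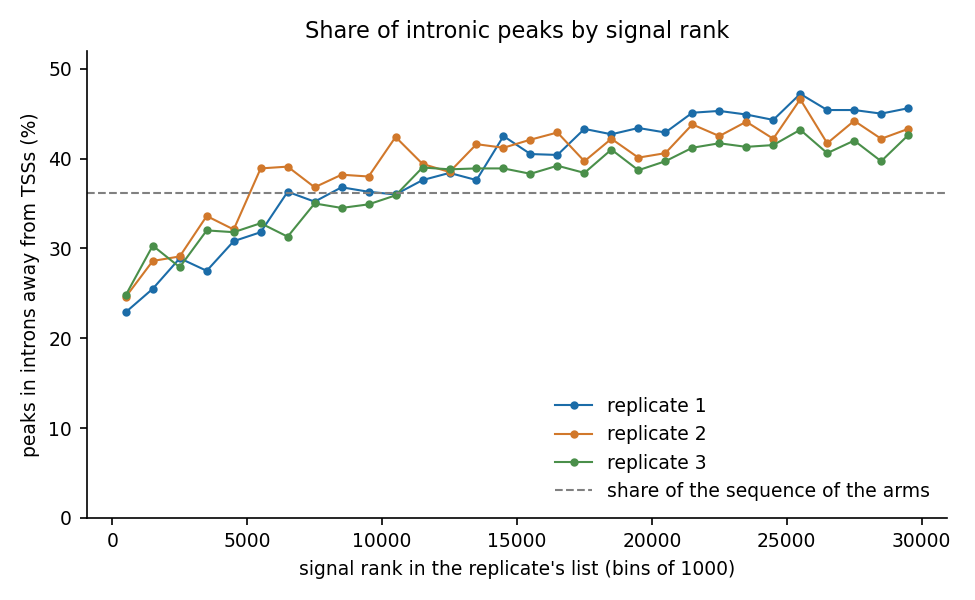
Share (%) of regions in introns away from TSSs in successive bins of 1000 regions by signal rank, for each replicate's list of 30000, with the share of such sequence in the arms as a dashed line. The share rises from 22.9, 24.6 and 24.8% in the highest bin to 45.6, 43.3 and 42.6% in the lowest.

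Intronic peaks, like intergenic ones, were recovered across replicates at least as well as promoter peaks of similar signal. A summit within 100 bp was among the top 9766 of all 3 replicates for 2069 members (63.9%, 62.3 to 65.6), against 65.2% of all optimal peaks and 66.2% (64.8 to 67.5) of those near a TSS. Within the middle 20% of the optimal list by signal, members were found in all 3 in 87.0% of cases (84.2 to 89.4) and TSS-proximal peaks in 75.9% (73.1 to 78.5). In the next lower 20% the shares were 53.2% (49.6 to 56.8) and 39.8% (36.5 to 43.0). In the highest 20% both were near 97%, at 97.3 and 97.0%. Intergenic peaks away from TSSs stood at 82.8% in the middle 20% and at 57.7% in the next lower 20%, so the difference from promoter peaks was not particular to introns. The optimal list was made from these same libraries, so part of the recovery is built in.

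The 20 highest members found in all replicates lay in 20 different genes, had a signal of 2650 to 10606, and ranked 168 or better in every replicate. The peak in ush (2L, 480521 to 481442, intron 1) ranked 3, 2 and 1, and lay 1368 bp from the nearest TSS. CG11050 (signal 8941) ranked 4, 4 and 2, CG32772 (6956) 5, 7 and 10, and CG32486 (6446) 9, 9 and 8. The peak of CG11050 lay in an intron of 140 bp, only 1019 bp from a TSS. Tlk, a kinase of chromatin assembly (signal 5063, 3742237 on the X), ranked 28, 16 and 40. Trl (4162) ranked 51, 51 and 31, and the chromatin gene upSET (3220) ranked 65, 71 and 118. The ecdysone-inducible nuclear receptor genes Eip78C and Hr4 had members of signal 2933 (ranks 105, 97 and 67) and 2831 (117, 80 and 157).

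Of the other hosts, norpA, the phospholipase C of phototransduction, had a member of signal 4858 with ranks of 29, 20 and 62. for, the cGMP-dependent kinase of foraging behaviour, had one of 3456 (ranks 61, 64 and 70). Within the BMP pathway, shn, a zinc finger factor that acts with Mad, had one of 2711 (ranks 108, 109 and 168), and wit, a type II receptor, one of 2650 (ranks 123, 130 and 133). The hosts CG3726, CG12769, CG9837, CG42238, babos, CG9328 and CG32264 completed the 20, with signals from 2666 to 4687. The peak in CG42238 lay 25249 bp from any TSS, the farthest of the 20, and 11 of the 20 were in intron 1.

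Members fell in a minority of genes, often several to a gene. Of 6852 protein-coding genes with sequence meeting the rule, 1111 (16.2%) held a member, and 16.0, 16.6 and 15.3% did in the replicates. Of these, 478 held 1 member, 436 held 2 to 4, 143 held 5 to 9 and 54 held 10 or more. The last group contained 702 members. Genes with over 30000 bp of such sequence had 1406 pairs of gene and member on 28.3 Mb, or 49.6 per Mb, and genes with 3000 to 10000 bp had 562 on 5.63 Mb, or 99.9 per Mb. Another member lay within 1000 bp of 980 members (30.3%) and within 5000 bp of 2195 (67.8%). Overlapping intervals of the list counted as separate members. kirre, an immunoglobulin-family gene on the X, had the most, 27, of which 20 were in all 3 replicates, and 27, 35 and 25 in replicates 1, 2 and 3. Tet, the gene of a dioxygenase that acts on nucleic acids, had 24 (22, 24 and 26 in the replicates) and a peak at a promoter as well. kirre and SKIP (20 members) had none within 1000 bp of a TSS of their own.

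The counts are of members per gene and not per length. sbb had 21 members, of which 16 were in all replicates, Snoo had 18 with 9, and shn had 17 with 13. Tlk, tara and the nuclear receptor gene Eip75B had 17 each, ush had 15, and CG43658 had 20. The noncoding genes lncRNA:CR44357, lncRNA:CR32773, lncRNA:CR44999 and lncRNA:CR44833, all on the X, spanned 23, 19, 18 and 17 members, and an overlapping gene may share some of these. Per length the order differed. Among protein-coding genes with at least 10 kb of such sequence, named here for their values, Mnt, the gene of a Max partner that opposes Myc, held 15 members in 21.8 kb (688 per Mb), and 15, 16 and 20 in the replicates. CHES-1-like, a forkhead gene, held 7 in 11.3 kb (621 per Mb) and tara 17 in 28.1 kb (604 per Mb). CG5151 held 10 in 16.9 kb (592 per Mb), of which 4 were in all replicates. Next was vri, a clock repressor, with 7 in 12 kb (583 per Mb). kirre had 85.3 per Mb on its 317 kb, against 66.6 for all protein-coding genes and 49.6 for those with over 30000 bp of such sequence.

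Genes with an intronic member also tended to have a peak at their own start. In genes with 3000 to 10000 bp of such sequence, 69.3% of the 319 hosts (64.0 to 74.1) had an optimal peak at 1 of their own TSSs (summit 1000 bp or less away), against 36.1% of the 665 genes without a member (32.5 to 39.8). From 10000 to 30000 bp the shares were 62.2% (57.2 to 67) and 27.1% (22.5 to 32.1). Above 30000 bp they were 64.6% (58.6 to 70.2) and 10.4% (6.5 to 16.2), and up to 1000 bp 76.7% (59.1 to 88.2) and 36.5% (35.0 to 38.0). They were closest from 1000 to 3000 bp, at 65.9% (57.2 to 73.6) and 42.4% (39.0 to 45.9). The share of genes with a member rose with the length of such sequence, from 0.782% up to 1000 bp to 62.8% above 30000 bp. Genes expressed in larvae and silent ones were not told apart here, since no expression data were analysed.

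Of the 18 gene lists, 13 had a density of members whose interval lay above that of all protein-coding genes, 2 (Hedgehog, and Hox and homeodomain) had an interval that included it, 2 (axon guidance, and ion channels) lay below it, and 1 had no member. These intervals treat the clustered members of a gene as independent counts, so they are too narrow where 1 gene gives many. In the blood cell list ush held 15 of 23 members, and in the muscle list mew held 14 of 31. All protein-coding genes together held 66.6 members per Mb (64.3 to 69.0). Density also varied with length: gene and member pairs stood at 99.9 per Mb in genes with 3000 to 10000 bp of such sequence and at 49.6 above 30000 bp, and the lists differ in length, whose part in the order was not tested. The BMP and activin list had 286 per Mb (229 to 353), with 10 of 17 genes holding a member (58.8%, against 16.2% of all genes, and 0.782 to 62.8% by length as above) and 267, 290 and 270 per Mb in the replicates. Besides sbb, Snoo and shn it was led by tkv, a type I receptor, with 12 members in 32.0 kb, 11 of them in all replicates. The EGFR and Ras list had 187 per Mb (144 to 239). It had a member in 12 of 20 genes (60.0%), beside 16.2% of all genes and 53.3% of those with 10000 to 30000 bp of such sequence. Raf led it with 13 members, of which 11 were in all replicates, and Egfr, S and pnt had 8 each. The JAK-STAT list had 334 per Mb but on 0.0329 Mb only (167 to 598): Socs36E, a feedback inhibitor, held 6, the repressor gene ken 3 and Stat92E 2.

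Insulin and TOR signalling, the pathway that controls foxo, had 176 per Mb (117 to 254), and 138, 144 and 170 in the replicates. The list had a member in 10 of 24 genes (41.7%), beside 16.2% of all genes and 32.4% of those with 3000 to 10000 bp of such sequence. Its members were weak, with a median signal of 215 against 284 over all protein-coding hosts. InR, the insulin receptor gene and a known target of foxo, held 5, but 3, 3 and 8 in replicates 1, 2 and 3, and only 1 was in all replicates. That one (3R, 21608661 to 21608860, intron 1, signal 606) ranked 2087, 2682 and 2021. The next (signal 254) ranked 4026, 15250 and 4841, low in replicate 2 alone. Those of signal 168.3 and 164.8 were overlapping intervals counted as separate members, with summits at 21605645 and 21605405. foxo itself held 3, of which the highest (3R, 14062111 to 14062281, intron 2, signal 435) ranked 4351, 3443 and 2729 and lay in all replicates, while the others, of signal 200.5 and 174, did not. REPTOR, a transcription factor under TOR, and HDAC4, a histone deacetylase that acts on foxo, held 4 each, of which 1 and 3 were in all replicates.

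Among metabolic genes 7 of 23 (30.4%) held a member, with 13 members in 0.0620 Mb (210 per Mb, 112 to 358). The share was 16.2% over all genes, 13.8% in those with 1000 to 3000 bp of such sequence and 32.4% in those with 3000 to 10000 bp. Acsl, an acyl-CoA synthetase gene, had 4 (the highest 827), the triglyceride lipase gene bmm 3 (418), the phosphatidate phosphatase gene Lpin 2 (527) and the lipid droplet gene Lsd-2 1 (1023). The ecdysone and nuclear receptor list had 126 per Mb (99.6 to 157) in 14 of 21 genes (66.7%), on 0.628 Mb. Of all genes 16.2% held a member. The share was 53.3% in genes with 10000 to 30000 bp of such sequence and 62.8% above 30000 bp. EcR, the ecdysone receptor gene, held 11 with 6 in all replicates, Eip74EF held 10 with 7, but 16, 11 and 17 in the replicates, and Hr4 held 9 with 7. The forkhead family had 231 per Mb (123 to 396), in 3 of 11 genes (27.3%): CHES-1-like, jumu with 3 members and foxo. That share stood beside 16.2% of all genes and 32.4% of those with 3000 to 10000 bp of such sequence. Wnt pathway genes had 156 per Mb (121 to 198), led by the receptor genes fz and fz2 with 12 each and arr with 10 in 20.6 kb. nkd, an antagonist, had 7.

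The Notch list had 139 per Mb (99.5 to 188), with the coactivator mam at 8, the receptor N at 4 and the protease kuz at 3. Its highest count, 11, was that of Bx, which encodes a LIM-only cofactor and is not a core component of the pathway. The Hippo list had 144 (93.9 to 211), with the cadherin ds at 10 and ex, kibra and the kinase wts at 4 each. Blood cell and GATA factors had 130 (82.5 to 195), muscle structure 111 (75.2 to 157) and BTB and zinc finger factors 104 (82.8 to 128). The first of these was ush with 15, then zfh1 with 3, grn with 2 and kn with 1. The second was led by the integrin gene mew with 14, followed by Zasp52 and if with 5 and Mef2 with 3. The third was led by jing with 15, psq with 11 and luna with 9. It also counted pnt with 8, an ETS-family gene that stands in the EGFR and Ras list too. The Hedgehog list had 94.5 per Mb (40.8 to 186), with boi and the receptor ptc at 3 and hh at 2.

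Some lists stood at or below the average. The Hox and homeodomain list had 69.2 per Mb (52.7 to 89.2), with hth at 15, Antp at 11 and inv at 4. It also counted Pdp1 with 4, a bZIP gene without a homeodomain. Axon guidance and adhesion genes had 52.8 (43.5 to 63.6), with Ten-a at 12, Sema1a at 10 and Fas3 at 8 besides kirre. Ion channel and synaptic genes had 15.8 (9.62 to 24.3), with 20 members on 1.27 Mb and 15.8, 19.7 and 12.6 per Mb in the replicates. The cAMP pathway genes dnc and rut had 4 and 3, dlg1 3 and nAChRalpha6 2. Of 33 cytosolic ribosomal protein genes only 3 had any sequence meeting the rule, under 1 kb in all, and none of it held a member.

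**Figure D5:**
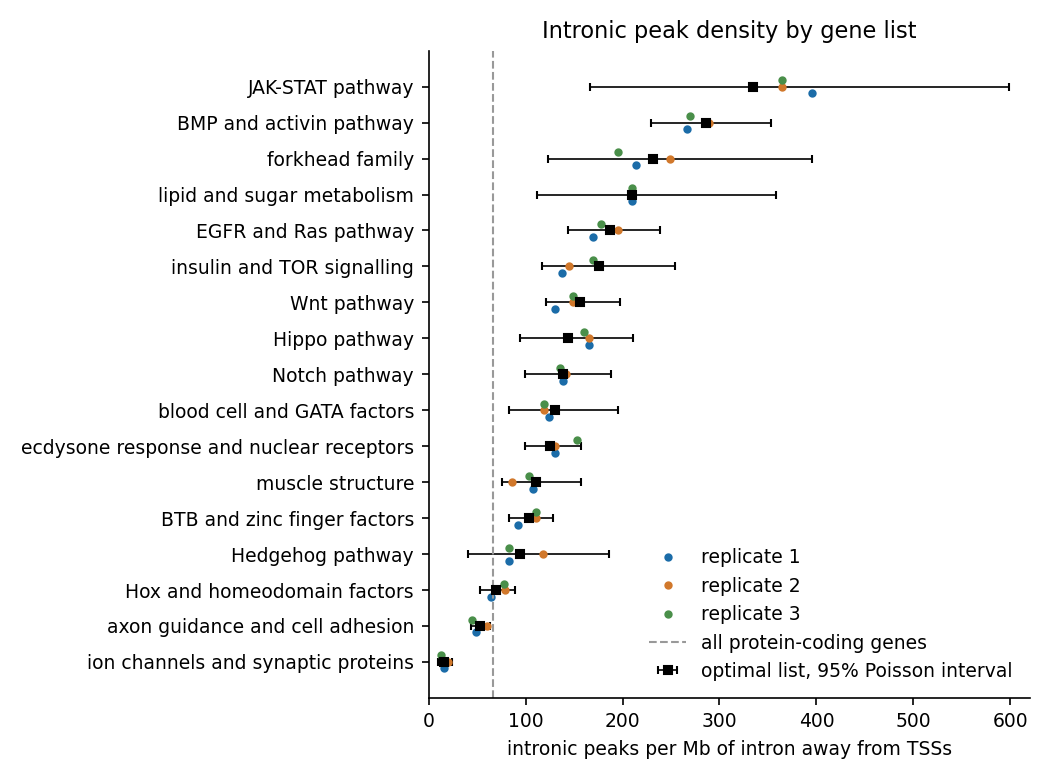
Intronic peaks per Mb of intron away from TSSs for the 17 gene lists with a member (squares, exact Poisson 95% intervals; dots, replicates 1 to 3), with all protein-coding genes as a dashed line at 66.6. Ion channel and synaptic genes lie lowest at 15.8, and the BMP and activin list lies at 286 with a narrower interval than the JAK-STAT list at 334.

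The members were spread unevenly over the arms. On the X they stood at 85.6 per Mb (79.7 to 91.7), on 2L at 70.0, on 3L at 67.7, on 2R at 61.2 and on 3R at 57.0 (53.0 to 61.3). The replicates gave 78.7, 91.4 and 73.4 on the X and 54.5, 57.7 and 55.7 on 3R, so the X was higher in each. The small chromosome 4 held 1 member in 0.526 Mb, against 1, 3 and 0 in the replicates.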

How the data were processed

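Chromatin from whole larvae was immunoprecipitated with anti-GFP antibody and sequenced in 3 biological replicates, and only the peak lists were used here. The authors deposited lists of 30000 candidate regions on dm6, 1 per replicate and 1 for the pooled reads, and 1 optimal list of reproducible peaks, each region with a signal value. The sources used here do not name the aligner, the peak caller or the normalization of that signal, so signal served only to rank peaks within a list. Sequencing depth is unknown, and intervals cover counting error only. Genes came from the Ensembl annotation of the same assembly without transposable elements, and sequence from the NCBI genome of that assembly. In each replicate the 9766 regions of highest signal, as many as the optimal list holds, were analysed like the optimal list. The background grid had 1 position per 100 bp. Motif backgrounds were all tiles, as long as the summit windows (100 bp to each side), of introns away from start sites without a pooled region, weighted to the members' GC content in 20 bins. Replicates were compared by the exact two-sided sign-flip permutation test, whose smallest p with 3 replicates is 0.25. Computations used Python 3.11.15, numpy and scipy, tested on simulated data. Named genes were the hosts of the 20 highest members found in all 3 replicates, the 15 genes with most members, up to 4 per gene list, foxo, InR and the hosts of printed sequences; others are marked where named. The rule for members, the 18 gene lists and the 20 motifs were chosen with earlier results of these data known. Of the genes listed, 441 matched the annotation and 4 names did not.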

Additional observations from a re-analysis of the deposited data

How the results depend on the processing

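With a TSS window of 500 bp, members made up 40.1% of the optimal peaks and were 1.66 times as dense as intergenic peaks; with 2000 bp they made up 24.9%, and 19.9% of genes held one. In the 4883 highest peaks they made up 28.9%, 95.1% were in all replicates, the ratio for intron 1 was 1.67, the forkhead core ratio 0.989 (below 1), 4 motifs lay above 1, and 10.4% of genes held a member. Against GC-matched flank windows the core ratio was 0.945. The causes of these changes were not tested. The share of members in all replicates was 47.9% with summits within 50 bp, 73.1% by interval overlap and 90.5% over all 30000 regions. The intron 1 ratio counting any transcript of any host was 1.54, and 9.24% of genes held 2 or more members. Leaving out 1 replicate gave 69.0 to 75.6% of members found in both others, intron 1 ratios of 1.60 to 1.63, and 13.5 to 14.2% of genes with a member. Of 64 alternative values, 41 kept their direction (compared results) or stayed within the spread between replicates (shares; counts within 1.5 times). No paired analysis was possible because there is 1 group. Depth is unknown from peak lists, which limits statements on weak peaks.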
